A study of Homo sapiens with 18 samples.

Results

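Replication licensing and DNA replication machinery is a set of 50 genes, listed by gene symbol. The set was chosen with earlier results of these data known, and most of its genes have textbook roles in loading, firing and running replication forks. All 50 were present among the 23368 gene rows of the count tables. They were divided by role into 15 licensing factors, 12 initiation factors, 16 elongation factors, 4 fork factors and 3 others. RNA was sequenced from SJSA-1 cells (called SJSA in the study), an osteosarcoma cell line in which MDM2 and CDK4 are amplified, in 6 groups of 3 replicates each. Nutlin, an antagonist of MDM2 that releases p53, was given at 20 µM for 6 h (Nutlin). PD0332991 (Palbociclib), an inhibitor of CDK4 and CDK6, was given at 10 µM for 30 h (PD30) or for 24 h (PD24). In the schedule of the study, PD24 cells spent the last 6 h without PD0332991. The combinations carried Nutlin during those last 6 h, after PD0332991 had been removed (N+PD24) or with it still present (N+PD30), and control cells received the solvent (DMSO). Every group came from the same single cell line. The study calls the samples biological triplicates, but the labels do not say that replicates came from separate cultures. The p-values measure the spread between these samples of a single cell line.

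DNA replication is prepared in G1, when the origin recognition complex (ORC), CDC6 and CDT1 load the ring of MCM2 to MCM7 onto origins, a step called licensing that geminin (GMNN) blocks by binding CDT1. At the entry into S phase the kinase CDC7 with DBF4 fires these origins, and MCM10, CDC45 and the GINS complex turn the loaded ring into an active helicase on which polymerase alpha and primase lay down primers. Polymerases delta and epsilon then extend the strands with the sliding clamp PCNA, its loader RFC and the single-strand binding complex RPA, and FEN1 and LIG1 join the fragments of the lagging strand. Many of these genes are known targets of E2F factors, which RB holds back until CDK4 and CDK6 phosphorylate it.

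Because E2F factors are known regulators of this family, the bases before the annotated starts were searched for E2F sites. RefSeq promoter windows (GRCh38.p14) could be matched by symbol for 43 of the 50 genes, with 54 start sites between them. The site was spelled as TTTCCCGC, TTTCGCGC, TTTGCCGC or TTTGGCGC and read on both strands, so that matches on opposite strands can overlap. Within 250 bases upstream, 15 of the 43 genes held a match (34.9%), where 928 of all 27305 genes in the table did (3.40%). Over single windows the shares were 27.8% of 54 and 2.79% of 35116. The share was 6 of 13 licensing genes, 4 of 11 initiation genes, 4 of 13 elongation genes and 1 of 4 fork genes. The CHR element, another cell cycle motif, was spelled TTTGAA or TTCGAA on both strands and lay upstream of 1 of the 43 genes (2.33%), that is MCM6, against 17.2% of all genes. With the 50 bases after the start included, a window added after the data were seen, an E2F match was present in 22 of the 43 genes (51.2%) and in 3.99% of all genes. A match is only a stretch of letters, and its absence says only that these letters are not in this window. The genes of the table were not matched to the members in expression or base composition.

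The upstream sequences of 7 members are shown 5′ to 3′ on the strand of the gene, with the E2F matches in capitals, because they cover the range of the responses described here. The first 4 lie before genes of licensing, initiation and elongation that fell in PD30, and MCM6 carries 4 overlapping matches in pairs. ORC3 has a match but was not called in PD30. MCM10, the initiation gene with the deepest fall, and POLD2, a polymerase gene that was not called, have none of the spelled forms in these bases.
CDT1 (chr16:88803539-88803788, plus strand): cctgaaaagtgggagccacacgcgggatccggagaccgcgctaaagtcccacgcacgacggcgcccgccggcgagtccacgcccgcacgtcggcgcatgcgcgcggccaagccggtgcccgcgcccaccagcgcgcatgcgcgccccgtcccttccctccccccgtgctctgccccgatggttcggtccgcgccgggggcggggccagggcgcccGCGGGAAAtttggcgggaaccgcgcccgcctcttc
MCM6 (chr2:135876444-135876693, minus strand): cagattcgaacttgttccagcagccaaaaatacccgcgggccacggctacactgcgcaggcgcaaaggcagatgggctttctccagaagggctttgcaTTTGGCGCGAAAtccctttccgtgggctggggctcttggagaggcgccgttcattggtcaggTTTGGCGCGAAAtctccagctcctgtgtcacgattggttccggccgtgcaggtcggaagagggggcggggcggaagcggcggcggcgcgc
GINS2 (chr16:85688955-85689204, minus strand): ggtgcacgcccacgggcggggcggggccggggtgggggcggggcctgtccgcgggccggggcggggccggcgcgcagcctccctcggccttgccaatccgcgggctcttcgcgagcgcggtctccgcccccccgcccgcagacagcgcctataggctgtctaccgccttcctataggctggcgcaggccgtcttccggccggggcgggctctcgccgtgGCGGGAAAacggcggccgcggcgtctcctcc
POLE (chr12:132687343-132687592, minus strand): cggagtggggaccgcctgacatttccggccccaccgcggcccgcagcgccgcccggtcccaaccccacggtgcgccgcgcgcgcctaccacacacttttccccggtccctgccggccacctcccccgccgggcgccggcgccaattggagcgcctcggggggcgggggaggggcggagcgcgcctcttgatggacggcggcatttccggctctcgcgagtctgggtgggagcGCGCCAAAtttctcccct
ORC3 (chr6:87589885-87590134, plus strand): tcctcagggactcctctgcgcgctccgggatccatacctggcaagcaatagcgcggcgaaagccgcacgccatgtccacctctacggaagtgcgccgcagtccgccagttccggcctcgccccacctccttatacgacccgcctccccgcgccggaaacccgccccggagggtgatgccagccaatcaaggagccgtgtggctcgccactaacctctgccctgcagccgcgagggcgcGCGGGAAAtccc
MCM10 (chr10:13161308-13161557, plus strand): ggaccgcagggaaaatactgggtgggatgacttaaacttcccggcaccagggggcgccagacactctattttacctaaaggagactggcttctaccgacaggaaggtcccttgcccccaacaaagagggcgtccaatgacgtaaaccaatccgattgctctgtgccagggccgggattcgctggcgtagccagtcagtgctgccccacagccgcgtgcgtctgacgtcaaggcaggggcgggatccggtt
POLD2 (chr7:44123549-44123798, minus strand): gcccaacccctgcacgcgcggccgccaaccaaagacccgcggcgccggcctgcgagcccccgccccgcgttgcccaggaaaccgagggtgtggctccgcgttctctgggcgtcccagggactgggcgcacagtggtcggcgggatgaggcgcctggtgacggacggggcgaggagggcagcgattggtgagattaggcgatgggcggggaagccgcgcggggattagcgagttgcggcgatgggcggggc

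Levels are CPM, the counts of a gene scaled by the total of its library, and they are compared for the same gene between groups. Library totals ranged from 12704845 in N+PD30 replicate 1 to 40231041, with a median of 29608936. The response to Nutlin matched the labels of the DMSO and Nutlin groups. The p53 target CDKN1A was at 216, 189 and 139 CPM in DMSO and at 3922, 4297 and 3859 CPM in Nutlin. It was also higher in N+PD30 than in PD30 (log2 fold change 4.34 ± 0.15, standard error, edgeR). No such check is given for PD0332991 or its removal. The amplified genes of the line were abundant in every library, with MDM2 at 1116 to 28638 CPM and CDK4 at 1834 to 3055 CPM. Of 8 osteoblast markers 5 had a median over 10 CPM, whereas SP7, BGLAP and IBSP were at or near 0. None of 8 epithelial, blood and endothelial markers did, and their summed level was 1.36 to 5.17 CPM. Libraries of a group differed in a shared direction. DMSO replicate 3 had the highest level of its group for 39 of the 50 members and DMSO replicate 1 the lowest for 35, and PD24 replicate 1 had the highest for 36 and PD24 replicate 3 the lowest for 34.

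In PD30, the expression of nearly the whole replication machinery was lower than in DMSO. A gene was called at a Benjamini-Hochberg adjusted p under 0.05 over all genes tested and an absolute log2 fold change over 1 (edgeR's quasi-likelihood test on counts). By this rule 43 of the 50 members were lower, where 9.48% of all 15125 genes tested were called lower. They were 11 of 15 licensing factors, all 12 initiation factors, 14 of 16 elongation factors, all 4 fork factors and 2 of 3 others. The 7 members that were not called were ORC2, ORC3, ORC4, ORC5, POLD2, RFC1 and MCM9. In bulk samples, fewer cells in S phase and less RNA of these genes per cell cannot be told apart.

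The depth of the fall differed little between licensing and initiation factors and was less for elongation factors. On the scale of log2 ratios of mean CPM + 0.5, the median change in PD30 was -3.23 ± 0.22 for licensing, -3.22 ± 0.13 for initiation and -2.66 ± 0.016 for elongation factors (SD over the 3 PD30 replicates). Licensing replicates gave -3.27, -3.01 and -3.46, initiation replicates -3.35, -3.19 and -3.45, and elongation replicates -2.76, -2.73 and -2.73. The elongation values were thus less negative than each value of the other classes. A class median is taken over ratios of group means, so it can lie outside its replicate values, as -2.66 does. Here and below, the SD is the spread of the replicate values against a shared control mean, and it is not an error of the class median. The median over all genes tested was -0.025, and that over the 50 members was -3.03. As a share of the DMSO mean, a median of 10.3% remained for licensing, 9.40% for initiation and 14.9% for elongation factors. Each class was broad, since licensing factors spanned -4.58 to 0.064, initiation factors -6.21 to -1.63 and elongation factors -3.98 to -0.21. These medians are descriptions without a test, because genes are not replicates of a condition. They depend on how the classes are drawn, since polymerase alpha and primase can be placed with elongation, and initiation then had a median of -3.80.

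**Figure D1:**
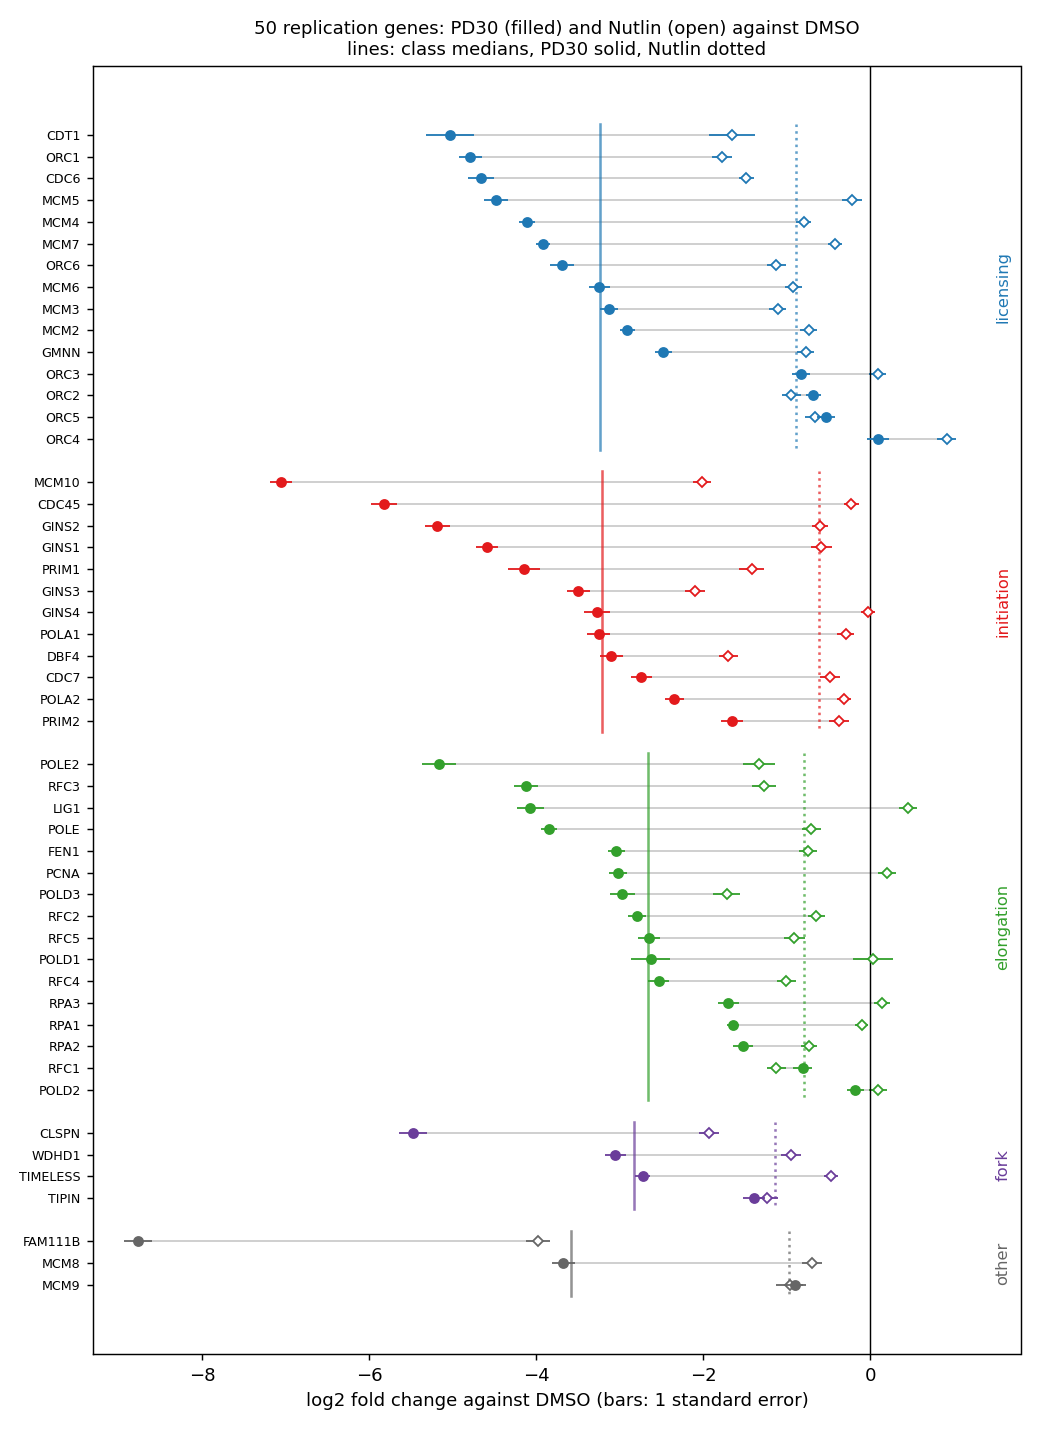
Log2 fold change (horizontal axis) of each of the 50 members in PD30 against DMSO (filled points) and in Nutlin against DMSO (open points), with standard errors as bars and members grouped by class. Vertical lines mark the class medians, which are log2 ratios of mean CPM + 0.5, and in PD30 they lie at -3.23 for licensing, -3.22 for initiation and -2.66 for elongation factors.

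The 6 subunits of the MCM ring, the substrate of licensing, fell together in PD30. MCM2 was at 186, 184 and 182 CPM in DMSO and at 22.7, 26.5 and 22.8 CPM in PD30. MCM5 was at 155, 133 and 129 CPM in DMSO and at 5.68, 7.33 and 5.23 CPM in PD30. These were the subunits with the least and the most change, with log2 fold changes of -2.91 ± 0.09, adjusted p = 1.1e-08 and -4.48 ± 0.14, adjusted p = 1.5e-08 (standard errors, edgeR). MCM3 went from 263, 279.9 and 303 CPM to 31.2, 35.2 and 28.2 CPM, and MCM4 from 437, 448 and 481 CPM to 26.3, 27.0 and 24.0 CPM. MCM6 went from 136, 144 and 152 CPM to 14.5, 17.4 and 12.7 CPM, and MCM7 from 349.7, 337 and 339 CPM to 22.2, 23.6 and 20.6 CPM. Their log2 fold changes were -3.13 ± 0.11 for MCM3, -4.11 ± 0.09 for MCM4, -3.24 ± 0.13 for MCM6 and -3.92 ± 0.09 for MCM7. In each of the 6 genes every PD30 library lay below every DMSO library. MCM7 (chr7:99689856-99699563, GRCh37) overlaps AP4M1 on the opposite strand and 3 microRNA genes on its own strand. The counting was set to use strand, but the sources do not say that the library kit marked it, so the share of reads from AP4M1, whose log2 fold change was -0.50 ± 0.14 in PD30, was not separated. In all, 9 members overlap a gene on the opposite strand, and such reads were not separated for any of them. Besides MCM7 and ORC4 they are DBF4, GINS1, PRIM1, RFC4, RFC5, RPA1 and MCM9.

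**Figure D2:**
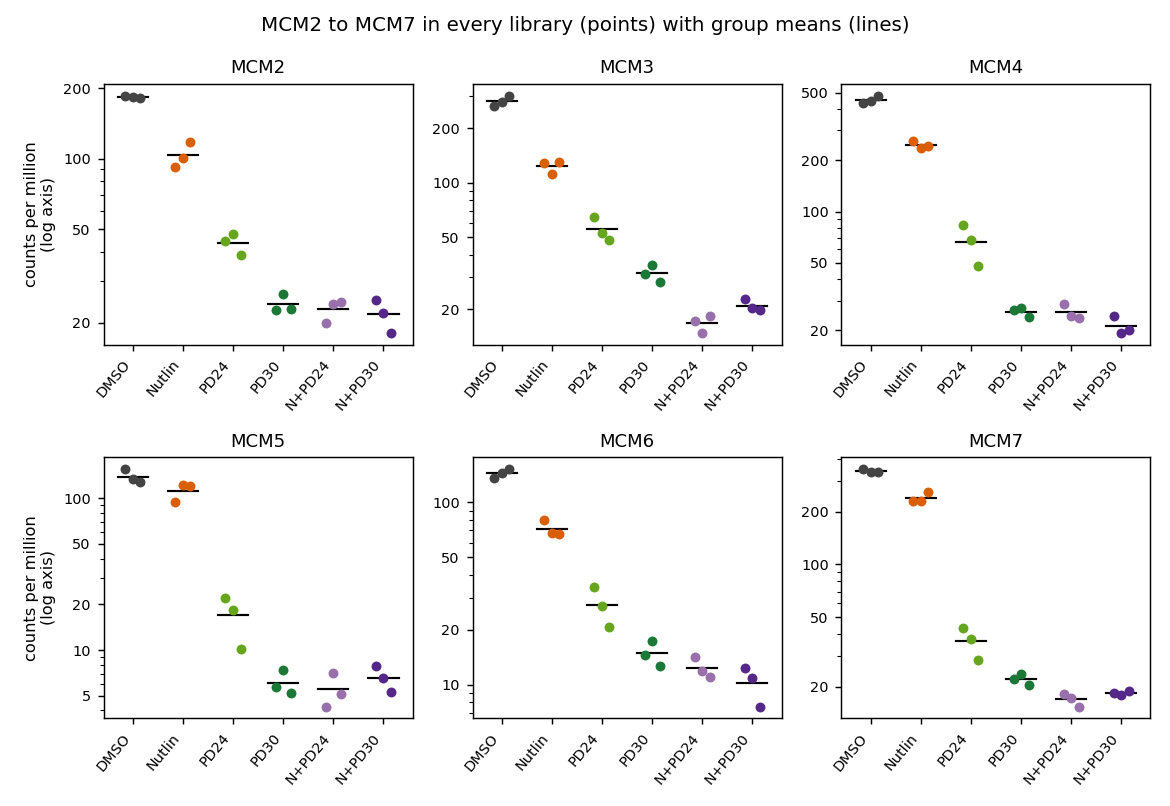
CPM of MCM2 to MCM7 in each of the 18 libraries (points, log axis) by group, with group means as lines. All 6 subunits are lowest in the groups that received PD0332991, and the PD24 points lie above the PD30 points in each panel.

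Among the factors that load the ring, the genes whose products are known to come and go with the cell cycle fell deeply, and ORC2 to ORC5, the core of ORC, did not reach the fold size of a call in PD30. CDT1 was at 38.4, 27.4 and 19.1 CPM in DMSO and at 0.762, 0.997 and 0.767 CPM in PD30 (-5.03 ± 0.29, adjusted p = 8.2e-07, edgeR). ORC1, the subunit of ORC that is known to cycle, was at 33.8, 37.1 and 40.5 CPM and 1.37, 1.32 and 1.26 CPM (-4.79 ± 0.14, adjusted p = 8.2e-09). CDC6 was at 144, 162 and 168 CPM and 5.43, 5.15 and 7.78 CPM (-4.66 ± 0.16, adjusted p = 1.9e-08). These were the 3 deepest falls among licensing factors. ORC6, which binds the core loosely, followed with -3.69 ± 0.14, and the inhibitor GMNN had -2.48 ± 0.10. By contrast, the log2 fold change was -0.68 ± 0.09 for ORC2, -0.83 ± 0.11 for ORC3 and -0.53 ± 0.10 for ORC5, all at an adjusted p under 0.05 but within the fold threshold. ORC4 was at 74.8, 78.9 and 95.03 CPM in DMSO and at 98.2, 73.5 and 88.5 CPM in PD30, so that the groups overlapped (0.10 ± 0.13, adjusted p = 0.59). Its 95% interval was -0.17 to 0.36, and its estimate was -0.026 without PD30 replicate 1. Of the 2 genes that overlap ORC4 on the opposite strand, MBD5 had 0.0018 ± 0.11 and ACVR2A -0.37 ± 0.12 in this comparison, and their reads could not be separated from those of ORC4.

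All 12 initiation factors fell in PD30, and genes for the proteins that turn the ring into a helicase had the deepest falls. MCM10 was at 74.3, 79.2 and 84.2 CPM in DMSO and at 0.540, 0.566 and 0.630 CPM in PD30 (-7.06 ± 0.13, adjusted p = 1.7e-09, edgeR). CDC45 was at 63.5, 70.8 and 72.5 CPM and 1.397, 1.27 and 0.931 CPM (-5.82 ± 0.16, adjusted p = 5.9e-09). GINS2 was at 50.9, 54.3 and 54.3 CPM and 1.65, 1.51 and 1.15 CPM (-5.18 ± 0.15, adjusted p = 8e-09). For these 3 genes the PD30 libraries were more than an order of magnitude below those of DMSO. The other GINS subunits had -4.59 ± 0.14 (GINS1), -3.49 ± 0.14 (GINS3) and -3.27 ± 0.16 (GINS4), and the kinase genes CDC7 and DBF4 had -2.74 ± 0.12 and -3.10 ± 0.14. Polymerase alpha and primase changed unevenly. PRIM2, the large primase subunit, had the smallest change of the class, from 28.7, 30.1 and 34.2 CPM to 7.94, 9.84 and 11.2 CPM (-1.65 ± 0.14, adjusted p = 1e-05). Its partner PRIM1 had -4.15 ± 0.19, and POLA1 and POLA2 had -3.25 ± 0.13 and -2.35 ± 0.12. PRIM1 overlaps NACA on the same strand, and NACA had 0.039 ± 0.07 in PD30.

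Among elongation factors the change depended on the subunit within each complex. POLE2, the second subunit of polymerase epsilon, was at 8.58, 9.59 and 9.44 CPM in DMSO and at 0.286, 0.189 and 0.274 CPM in PD30 (-5.16 ± 0.21, adjusted p = 6.2e-08, edgeR). RFC3 was at 60.5, 60.7 and 78.9 CPM and 3.84, 3.83 and 3.59 CPM (-4.12 ± 0.15, adjusted p = 2.7e-08). LIG1, the ligase of the lagging strand, was at 77.6, 65.4 and 74.5 CPM and 4.98, 4.39 and 3.34 CPM (-4.07 ± 0.16, adjusted p = 6.2e-08). These 3 were the deepest falls of the class. In the clamp loader, RFC2, RFC4 and RFC5 had -2.79 ± 0.11, -2.53 ± 0.12 and -2.65 ± 0.13, whereas RFC1, its large subunit, had -0.81 ± 0.12, adjusted p = 0.00038 and was not called. In polymerase delta, POLD1, the catalytic subunit, and POLD3 had -2.63 ± 0.23 and -2.97 ± 0.15. POLD2 was at 88.6, 82.6 and 76.8 CPM in DMSO and at 67.9, 81.6 and 65.3 CPM in PD30, and did not pass the test (-0.18 ± 0.10, adjusted p = 0.19, 95% interval -0.38 to 0.024). The clamp PCNA went from 251, 275 and 304 CPM to 30.6, 32.8 and 37.1 CPM (-3.02 ± 0.10), and the nuclease gene FEN1 had -3.04 ± 0.10. FADS2, a fatty acid desaturase gene that overlaps FEN1 on the same strand, was higher in PD30 (2.61 ± 0.10), and its part in the FEN1 value was not tested. The 3 RPA subunits, which also serve repair, moved closely together, with -1.64 ± 0.07 for RPA1, -1.52 ± 0.12 for RPA2 and -1.70 ± 0.13 for RPA3. PCNA, RPA2, RPA3, FEN1, RFC3, RFC5 and POLD2 are among 10 members with named pseudogenes, with which reads may have been shared.

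Of the fork factors, CLSPN, which carries the checkpoint signal to CHK1, was at 79.6, 89.2 and 97.3 CPM in DMSO and at 2.41, 1.70 and 1.78 CPM in PD30 (-5.47 ± 0.16, adjusted p = 1e-08, edgeR). WDHD1, which ties polymerase alpha to the helicase, was at 32.4, 36.4 and 39.6 CPM and 4.32, 4.12 and 4.35 CPM (-3.05 ± 0.12). TIMELESS and TIPIN form 1 complex that protects the fork, yet they changed to different extents. TIMELESS was at 106, 113 and 118 CPM and 17.0, 17.1 and 15.8 CPM (-2.72 ± 0.09), and TIPIN was at 19.1, 18.5 and 23.2 CPM and 7.33, 7.66 and 7.72 CPM (-1.39 ± 0.13). FAM111B, a gene of the protease family of FAM111A, fell further than any other member, from 98.9, 99.1 and 111 CPM to 0.254, 0.270 and 0.164 CPM (-8.77 ± 0.16, adjusted p = 1.7e-09). Its summed counts, 9748 in DMSO and 24 in PD30, gave a 439-fold ratio of levels with an exact 95% interval of 295 to 685, which covers counting error only. MCM8 was at 63.3, 67.5 and 81.3 CPM and 4.95, 5.15 and 6.19 CPM (-3.67 ± 0.14), and MCM9 at 8.91, 8.07 and 9.69 CPM and 4.44, 4.58 and 4.96 CPM (-0.90 ± 0.13, adjusted p = 0.00048). Both form a helicase that is known from recombination, and only MCM8 was called.

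Of the genes whose upstream sequences are shown above, CDT1, MCM6, GINS2 and POLE had log2 fold changes in PD30 of -5.03 ± 0.29, -3.24 ± 0.13, -5.18 ± 0.15 and -3.84 ± 0.10. Of the 15 members with an E2F match in the 250 bases upstream, 14 were called lower in PD30, the exception being ORC3, and their median log2 fold change was -3.24. Of the 28 members without one 22 were called lower, with a median of -2.97. In the window that includes the 50 bases after the start, 21 of the 22 members with a match were called lower (median -3.58) and 15 of the 21 without one (median -2.65). In both windows 6 of the 7 members that were not called had no match (ORC2, ORC4, ORC5, POLD2, RFC1 and MCM9), and most of the members without a match were called lower. These values are a description, and no test was made.

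When PD0332991 was removed for the last 6 h (PD24), most of the fall against DMSO was still present. In PD24 against DMSO 44 members were called lower, where 7.96% of all genes were. They were 12 licensing, 12 initiation, 15 elongation and 3 fork factors and 2 others, and ORC3 and RFC1 were called here with -1.10 ± 0.14 and -1.16 ± 0.11. The class medians were -2.38 ± 0.32 for licensing, -2.996 ± 0.32 for initiation and -2.38 ± 0.15 for elongation factors (SD over the PD24 replicates, with 0.017 over all genes tested). Licensing factors were thus level with elongation factors in PD24. PD24 replicates 1, 2 and 3 gave -2.12, -2.40 and -2.77 for licensing and -2.29, -2.32 and -2.56 for elongation. A median of 16.0% of the DMSO level remained over all members, against 11.6% in PD30.

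The direct comparison of PD24 with PD30 shows which genes were higher after removal. In this comparison 9 members were called higher, where 4.07% of all genes were, and 0 were called lower by edgeR or by DESeq2, with 1 member lower at an unadjusted p under 0.05. The 9 were ORC1, CDT1, MCM4 and MCM5 of 15 licensing factors, GINS1, GINS2 and GINS3 of 12 initiation factors and POLE2 and RFC3 of 16 elongation factors. At the adjusted p alone, for which no share of all genes is given, 13 more were higher, 7 of them licensing factors. Class medians were 0.71 ± 0.25 for licensing, 0.42 ± 0.24 for initiation and 0.22 ± 0.075 for elongation factors, and 0.042 over all genes tested.

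MCM5 was at 22.1, 18.5 and 10.1 CPM in PD24, above its 3 PD30 values (1.44 ± 0.28, adjusted p = 0.0061, edgeR). MCM4 was at 83.6, 68.1 and 48.2 CPM (1.34 ± 0.19, adjusted p = 0.0014), and CDT1 at 3.49, 3.56 and 1.43 CPM (1.70 ± 0.37, adjusted p = 0.01). The other MCM subunits were higher at the adjusted p alone. MCM2 was at 44.5, 47.97 and 38.8 CPM, MCM3 at 64.5, 53.0 and 48.4 CPM, MCM6 at 34.1, 26.9 and 20.7 CPM and MCM7 at 43.5, 37.6 and 28.4 CPM in PD24, with log2 fold changes of 0.84 ± 0.13, 0.78 ± 0.14, 0.85 ± 0.20 and 0.69 ± 0.17. In these 6 genes PD24 replicate 1 was the highest or next to it. ORC1 was at 4.03, 3.14 and 2.12 CPM (1.197 ± 0.27) and POLE2 at 1.24, 0.890 and 0.960 CPM (2.01 ± 0.31, adjusted p = 0.0022). GINS3 was at 5.01, 4.53 and 3.57 CPM in PD24 and 1.56, 2.21 and 1.92 CPM in PD30 (1.17 ± 0.21), and RFC3 at 11.2, 7.37 and 5.51 CPM in PD24 (1.07 ± 0.25). By contrast, CDC45 was at 1.38, 1.06 and 0.664 CPM (-0.26 ± 0.32), GINS4 at 8.50, 6.48 and 5.27 CPM (0.15 ± 0.23) and CDC6 at 13.9, 7.54 and 6.18 CPM (0.56 ± 0.30, adjusted p = 0.19), and none of them passed the test. Their 95% intervals were -0.89 to 0.37 for CDC45, -0.30 to 0.60 for GINS4 and -0.015 to 1.14 for CDC6. The count of 9 leaned on PD24 replicate 1, without which 5 members were called. Of the 4 lost calls, ORC1 went to 0.96, GINS1 to 0.67, GINS2 to 0.85 and RFC3 to 0.75. GINS2 (adjusted p = 0.036) was also lost without PD24 replicate 2 and without any 1 of the PD30 replicates, GINS1 (adjusted p = 0.028) without PD30 replicate 1 or 3, and RFC3 without PD30 replicate 3. Same-numbered replicates of these groups deviated together, although neither the labels nor the study names a pairing. With the replicate as a block GINS1 was at 0.98 and 8 members were called.

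Nutlin alone lowered part of the machinery, and by less. In Nutlin against DMSO 17 members were called lower, where 8.42% of all genes were. The 17 were 5 of 15 licensing, 4 of 12 initiation, 5 of 16 elongation and 2 of 4 fork factors and FAM111B. At the adjusted p alone, for which no share of all genes is given, 22 more were lower. The class medians were -0.88 ± 0.079 for licensing, -0.61 ± 0.14 for initiation and -0.80 ± 0.12 for elongation factors (SD over the Nutlin replicates, with -0.052 over all genes tested). A median of 56.4% of the DMSO level remained. Scaling by total counts moved the fitted median of all genes by -0.13 in this comparison, and 22 members were then called lower. RFC4 (-1.005 ± 0.12) was at the edge of the fold threshold. It lost its call in DESeq2, with size factors by relative log expression (-0.99) and without DMSO replicate 3 or Nutlin replicate 2. ORC4 reached 1.03 and was called higher without DMSO replicate 3.

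FAM111B had the deepest fall with Nutlin too, to 6.495, 4.94 and 7.06 CPM (-3.98 ± 0.15, adjusted p = 1.8e-07, edgeR). GINS3 was at 22.1, 22.2 and 21.3 CPM in DMSO and at 4.80, 4.94 and 4.75 CPM in Nutlin (-2.09 ± 0.12, adjusted p = 1.7e-06). MCM10 was at 19.3, 16.6 and 19.5 CPM (-2.02 ± 0.11) and CLSPN at 22.7, 19.2 and 23.8 CPM (-1.93 ± 0.12). Of the factors that load the ring, ORC1 was at 9.63, 10.8 and 10.4 CPM (-1.77 ± 0.12), CDT1 at 5.46, 9.98 and 9.87 CPM (-1.66 ± 0.27) and CDC6 at 54.9, 52.4 and 52.7 CPM (-1.48 ± 0.09). The ring itself changed less, and only MCM3 was called, at 128, 112 and 129.9 CPM (-1.11 ± 0.10). MCM5 was at 94.8, 122 and 121 CPM and MCM7 at 231, 232 and 260.3 CPM in Nutlin (-0.22 ± 0.12 and -0.42 ± 0.09), and MCM2, MCM4 and MCM6 had -0.74 ± 0.10, -0.80 ± 0.09 and -0.92 ± 0.10.

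CDC45, GINS4 and PCNA, all called lower in PD30, were among the 9 members that did not pass the adjusted p with Nutlin. CDC45 was at 55.5, 56.3 and 54.9 CPM in Nutlin (-0.23 ± 0.09, adjusted p = 0.061, edgeR) and GINS4 at 53.7, 52.3 and 56.7 CPM against 60.0, 57.9 and 58.0 CPM in DMSO (-0.026 ± 0.09, adjusted p = 0.82, 95% interval -0.20 to 0.14). PCNA, itself a known p53 target, was at 326, 293 and 281 CPM (0.20 ± 0.10, adjusted p = 0.12). In the reverse direction, ORC4 and LIG1 were higher at the adjusted p alone. ORC4 was at 154, 148 and 140.1 CPM (0.91 ± 0.11, adjusted p = 8.9e-05) and LIG1 at 82.7, 97.3 and 101 CPM (0.45 ± 0.11, adjusted p = 0.0054), and for both every Nutlin library lay above every DMSO library. MBD5, on the strand opposite to ORC4, was also higher with Nutlin (1.45 ± 0.12), and its part in the ORC4 value was not tested. ORC2, ORC5, RFC1 and MCM9, which were not called in PD30, had changes with Nutlin of -0.94 ± 0.11, -0.66 ± 0.12, -1.12 ± 0.11 and -0.97 ± 0.16, and RFC1 was called. In PD30 the same genes had -0.68 ± 0.09, -0.53 ± 0.10, -0.81 ± 0.12 and -0.90 ± 0.13, smaller in size, though only slightly for ORC5 and MCM9. In the other direction, ORC3 and POLD2, also not called in PD30, were at 100% of the DMSO mean in Nutlin and at 55.0% and 86.6% in PD30. TIPIN had -1.23 ± 0.14 with Nutlin and -1.39 ± 0.13 in PD30. The 2 comparisons share the DMSO libraries, so these values are set side by side without a test.

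**Figure D3:**
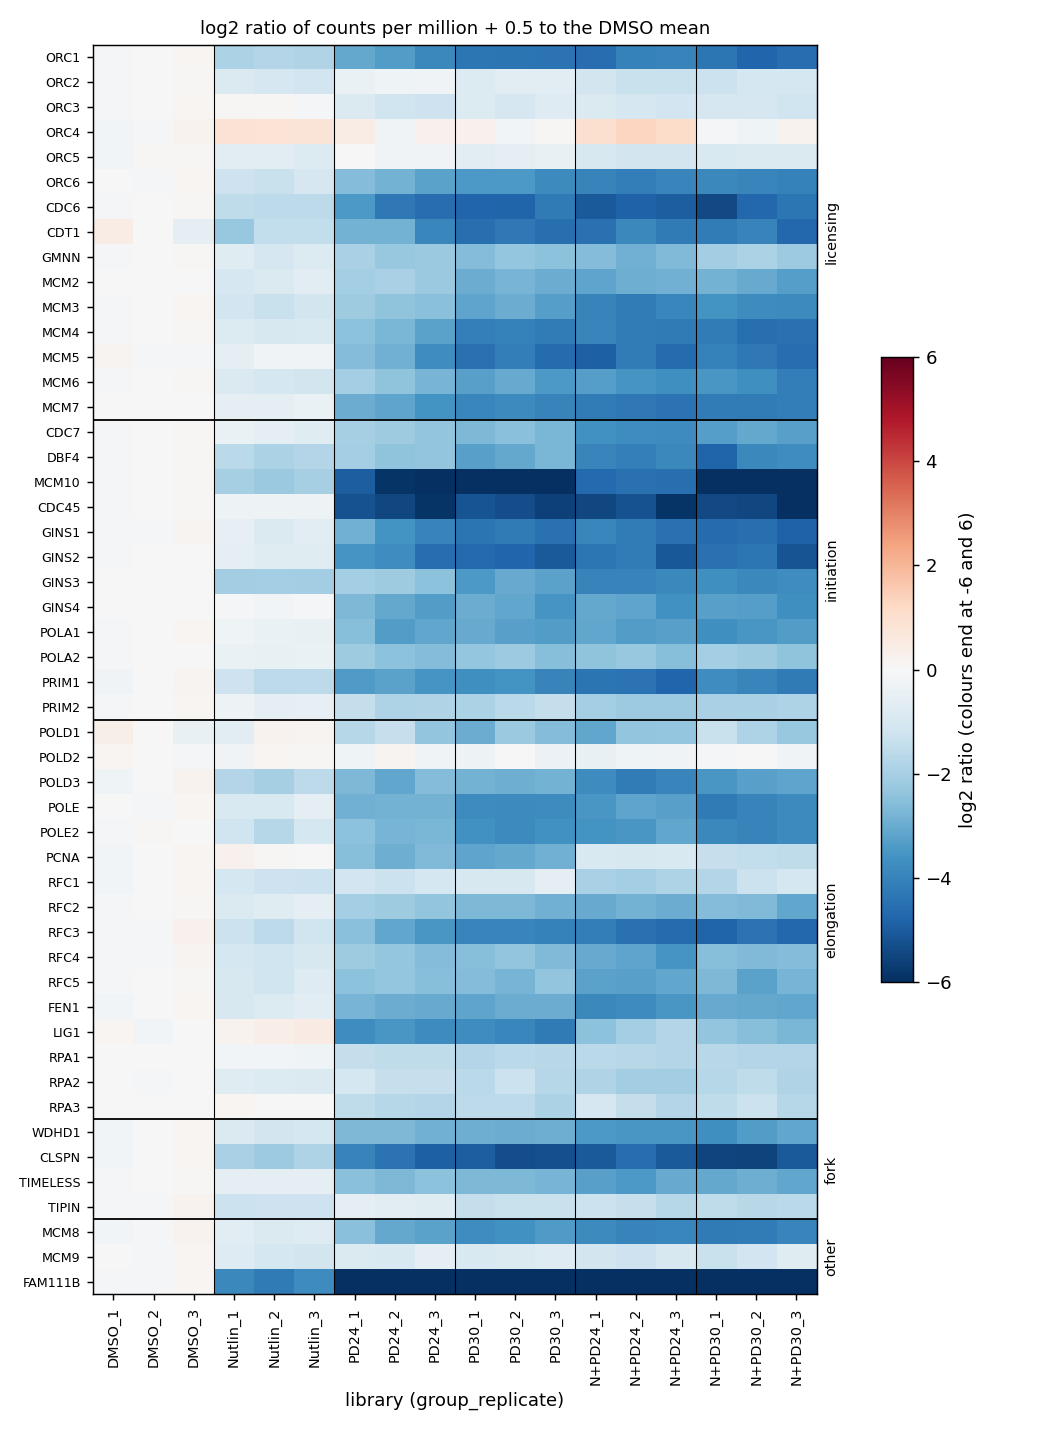
Log2 ratio of CPM + 0.5 in each of the 18 libraries to the DMSO mean (colour, ends at -6 and 6) for the 50 members in rows, ordered by class. The 12 libraries with PD0332991 are blue in nearly all rows, the Nutlin libraries are paler apart from FAM111B, and ORC2 to ORC5 and POLD2 stay pale throughout.

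With Nutlin present, PD0332991 lowered the set further. In N+PD30 against Nutlin 42 members were called lower, where 13.9% of all genes were, and in N+PD24 against Nutlin 43 were, where 5.63% of all genes were. The second comparison was made with limma on log2(CPM + 0.5), because the N+PD24 values had been deposited after division by a size factor. All 12 initiation factors and 12 of 15 licensing factors were called in both, and 13 and 14 of 16 elongation factors. In N+PD30 the medians against Nutlin were -2.59 ± 0.14 for licensing, -2.87 ± 0.15 for initiation and -1.65 ± 0.078 for elongation factors (SD over the N+PD30 replicates, with 0.035 over all genes tested). In N+PD24 they were -2.49 ± 0.25, -2.96 ± 0.11 and -2.18 ± 0.015 (SD over the N+PD24 replicates, with 0.0089 over all genes tested). The elongation factors had the smallest median fall in both. With polymerase alpha and primase placed among them, the elongation median in N+PD30 was -1.76 and the initiation median -3.61. A median of 8.81% of the DMSO level remained in N+PD30 and 9.09% in N+PD24. No member was called higher in PD30, PD24 or Nutlin against DMSO or in either of these comparisons, by edgeR or DESeq2 where counts were deposited and by limma or edgeR for N+PD24. At an unadjusted p under 0.05, 2 members were higher in Nutlin and 1 in N+PD24.

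CDC45 was at 1.14, 1.09 and 0.474 CPM in N+PD30 and at 1.06, 1.34 and 0.677 CPM in N+PD24, with log2 fold changes against Nutlin of -5.99 ± 0.24 (edgeR) and -5.20 ± 0.18 (limma). The limma values, on log2(CPM + 0.5), understate the changes of low genes, so the 2 are not on 1 scale. As a share of the DMSO mean, CDC45 was at 1.31% in N+PD30 and 1.49% in N+PD24. MCM5 was at 7.80, 6.57 and 5.30 CPM and 4.24, 7.10 and 5.15 CPM (-4.15 ± 0.18 and -4.24 ± 0.18). MCM7 was at 18.4, 17.9 and 19.0 CPM and 18.2, 17.2 and 15.4 CPM (-3.74 ± 0.13 and -3.78 ± 0.12). In these genes the libraries of both combinations lay far below the Nutlin libraries. MCM2 was at 25.03, 22.1 and 18.1 CPM in N+PD30 and 19.9, 24.1 and 24.6 CPM in N+PD24, and MCM3 at 22.8, 20.2 and 19.8 CPM and 17.3, 14.8 and 18.3 CPM. MCM4 was at 24.2, 19.4 and 20.1 CPM in N+PD30 and 28.7, 24.3 and 23.6 CPM in N+PD24, and MCM6 at 12.3, 10.9 and 7.58 CPM and 14.2, 11.9 and 10.9 CPM. Of the loading factors, CDT1 was at 1.06, 1.29 and 0.616 CPM in N+PD30 (-3.10 ± 0.33), ORC1 at 1.38, 0.885 and 1.09 CPM (-3.29 ± 0.22) and CDC6 at 3.25, 5.62 and 7.34 CPM (-3.31 ± 0.22). The lowest counts of the set were those of FAM111B, with 3, 1 and 5 counts in N+PD30, and of POLE2, with 2, 3 and 4. The ratio of Nutlin to N+PD30 was 42.7-fold for FAM111B (exact 95% counting interval 22.3 to 93.9) and 23.8-fold for POLE2 (12.4 to 52.6). POLD2, ORC2, ORC4, ORC5, RFC1, TIPIN and MCM9 were called in neither comparison. In N+PD24 the calls of ORC3 (-1.002 ± 0.13) and PCNA (-1.02 ± 0.10) were lost without Nutlin replicate 1. The call of ORC3 was also lost without N+PD24 replicate 3 and with a pseudocount of 2 (-0.95).

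Whether Nutlin had the same effect with and without PD0332991 was tested by an interaction term over the DMSO, Nutlin, PD30 and N+PD30 libraries. A value above 0 means that the log2 change with Nutlin was less negative, or more positive, in the presence of PD0332991. The interaction was called above 0 for 13 members, where 5.28% of all genes were, and below 0 for none by edgeR. ORC4 was below 0 at the adjusted p alone (-0.96 ± 0.20), it was the only member below 0 at an unadjusted p under 0.05, and DESeq2 called it. The 13 were ORC1, CDC6, CDT1 and GMNN, then MCM10, GINS3 and PRIM1, then POLD3, PCNA and LIG1, with CLSPN, TIPIN and FAM111B. For FAM111B, MCM10, CDT1 and CLSPN the values were 3.40 ± 0.71, 2.06 ± 0.28, 1.97 ± 0.50 and 1.78 ± 0.26. MCM10 was lower with Nutlin in the absence of PD0332991, but stood at 0.540, 0.566 and 0.630 CPM in PD30 and 0.731, 0.647 and 0.379 CPM in N+PD30. CLSPN was likewise at 2.41, 1.70 and 1.78 CPM and 1.46, 1.396 and 2.18 CPM. FAM111B rested on 24 counts in PD30 and 9 in N+PD30, and its adjusted p of 0.0049 rose to 0.055 without N+PD30 replicate 3. CDT1 lost its call without N+PD30 replicate 2 (1.63, adjusted p = 0.085), and LIG1 lost its call without PD30 replicate 3 (0.96). TIPIN lost its call without DMSO replicate 3 or N+PD30 replicate 1, and in DESeq2. PRIM1 lost its call without Nutlin replicate 2, PD30 replicate 3, or N+PD30 replicate 1 or 2.

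In N+PD30 against PD30, which compares Nutlin directly on the background of PD0332991, few members differed. PCNA and LIG1 were called higher, where 3.18% of all genes were, and DBF4 was called lower, where 0.497% of all genes were. PCNA was at 30.6, 32.8 and 37.1 CPM in PD30 and at 105, 99.2 and 95.7 CPM in N+PD30 (1.59 ± 0.10, adjusted p = 7.3e-05, edgeR). LIG1 was at 4.98, 4.39 and 3.34 CPM and 13.5, 12.0 and 10.5 CPM (1.51 ± 0.19, adjusted p = 0.0027). For both genes every N+PD30 library lay above every PD30 library, and both kept their calls in each alternative tried. Their levels in N+PD30 were still below Nutlin, at -1.62 ± 0.12 and -3.01 ± 0.15. DBF4, the activator of CDC7, was at 4.54, 5.15 and 6.60 CPM in PD30 and 1.22, 2.83 and 3.17 CPM in N+PD30 (-1.10 ± 0.29, adjusted p = 0.039). Its call was lost without any 1 of the PD30 replicates and without N+PD30 replicate 1 or 2, with an adjusted p of up to 0.11. FAM111B and POLE2 were too low to be tested here.

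**Figure D4:**
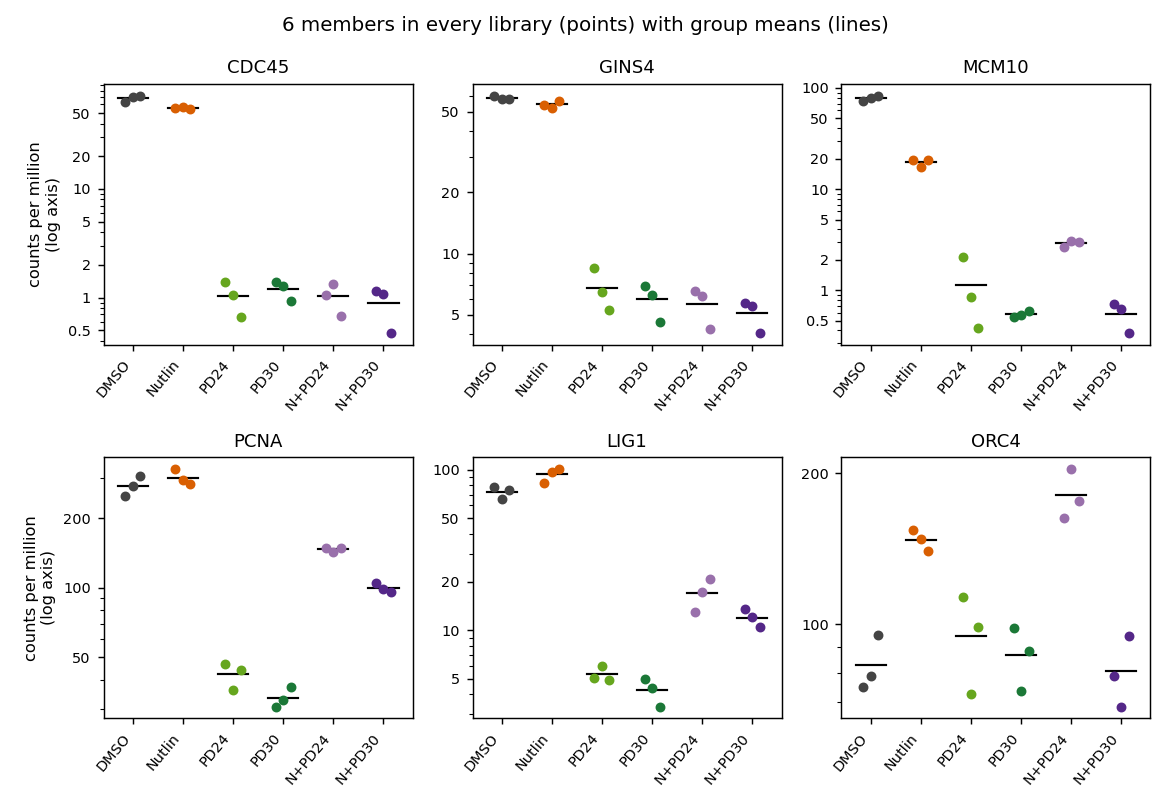
CPM (log axis) of CDC45, GINS4, MCM10, PCNA, LIG1 and ORC4 in each of the 18 libraries (points), with group means as lines. CDC45 and GINS4 are low only in the groups with PD0332991, PCNA and LIG1 are higher in N+PD30 than in PD30, and ORC4 is highest in Nutlin and N+PD24.

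With Nutlin present, the share of members called higher after removal of PD0332991 was near that of all genes. In N+PD24 against N+PD30, 2 of the 48 members tested, MCM10 and ORC4, were called higher (limma), where 5.28% of all genes were, and 0 members were called lower by limma or by edgeR on the recovered reads. At an unadjusted p under 0.05, 8 members were lower, and 5 of them passed the adjusted p alone. POLE2 and FAM111B were too low to be tested. POLE2 was at 3.36, 4.01 and 6.54% of its DMSO mean in N+PD24 (7, 13 and 16 counts). In N+PD30 it was at 1.77, 1.11 and 2.06% (2, 3 and 4 counts). FAM111B was at 0.171, 0.275 and 0.146% in N+PD24 and at 0.236, 0.033 and 0.230% in N+PD30, so that the groups overlapped. The class medians were -0.069 ± 0.084 for licensing, 0.092 ± 0.19 for initiation and -0.20 ± 0.062 for elongation factors, and -0.033 over all genes tested. MCM10 was at 2.69, 3.04 and 3.01 CPM in N+PD24, above the 3 N+PD30 libraries (1.68 ± 0.19, adjusted p = 0.00035), and with a pseudocount of 2 its fold change was 0.93. In PD24 it was at 2.12, 0.848 and 0.418 CPM, where replicate 1 alone was above 1 CPM (0.91 ± 0.52, adjusted p = 0.23). ORC4 was at 163, 204 and 176 CPM in N+PD24 and 79.0, 68.5 and 94.5 CPM in N+PD30 (1.21 ± 0.15, adjusted p = 0.0005). In PD24 ORC4 was at 113, 72.7 and 98.6 CPM, overlapping PD30. MBD5 was lower in N+PD24 than in N+PD30 (-0.84 ± 0.14), the opposite of ORC4.

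The difference between these 2 removal effects was tested over the PD24, PD30, N+PD24 and N+PD30 libraries with limma, a comparison that was added after the data were seen. A value below 0 means that the log2 change on removal was more negative with Nutlin than without it. It was below 0 for 5 members, where 4.12% of all genes were, and above 0 for ORC4 alone, where 3.1% of all genes were. The 5 were MCM3, MCM4 and MCM5 of the ring, GINS3 and POLD1. MCM5 had the most negative value (-1.57 ± 0.38, adjusted p = 0.014), as it was higher on removal without Nutlin (1.44 ± 0.28) and not with it (-0.20 ± 0.22, adjusted p = 0.51). MCM4 had 1.34 ± 0.19 without Nutlin and 0.31 ± 0.15 with it. GINS3 was at 0.884, 0.909 and 1.05 CPM in N+PD24 and 1.22, 1.02 and 1.18 CPM in N+PD30, and its interaction was -1.19 ± 0.23. With a pseudocount of 2 the GINS3 interaction was -0.79, within the fold threshold, and its call was lost. POLD1 was at 13.1, 16.8 and 8.19 CPM in PD24, 5.18, 9.11 and 6.87 CPM in PD30, 4.68, 8.21 and 8.50 CPM in N+PD24 and 17.6, 11.9 and 8.71 CPM in N+PD30 (-1.54 ± 0.44, adjusted p = 0.032). The POLD1 libraries of each group spread widely, and its call was lost without any 1 of 7 libraries, which were PD24 replicates 1 and 2, PD30 replicates 1 and 3, N+PD24 replicate 1 and N+PD30 replicates 1 and 2 (adjusted p of up to 0.085, limma). The count of 5 lay between 2 and 7 when single libraries were left out. MCM3 lost its call without PD24 replicate 1 (-0.97), MCM4 without PD24 replicate 1, PD30 replicate 3, N+PD24 replicate 3 or N+PD30 replicate 1, and ORC4 without PD24 replicate 2, PD30 replicate 1 or N+PD24 replicate 2 (0.89 to 0.99).

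A second list held 24 other replication genes, such as chromatin assembly factors and the genes of the second clamp loader. It was chosen with earlier results of these data known. Of the 24, 18 were called lower in PD30 against DMSO, where 9.48% of all genes were, and 0 higher by edgeR. The only one higher at the adjusted p alone was POLD4, the small subunit of polymerase delta (0.54 ± 0.13), which is named after its value was seen. The deepest falls were in ASF1B, a histone chaperone, DSCC1, a subunit of that clamp loader, and CHAF1B, a subunit of chromatin assembly factor. ASF1B was at 102, 104 and 110.2 CPM in DMSO and 1.46, 1.35 and 0.849 CPM in PD30 (-6.41 ± 0.17). DSCC1 was at 40.5, 43.8 and 47.1 CPM and 0.825, 0.970 and 1.04 CPM (-5.49 ± 0.14), and CHAF1B at 34.1, 37.6 and 43.97 CPM and 1.56, 1.94 and 2.05 CPM (-4.35 ± 0.16). The median over the list was -2.80 in PD30, beside -3.03 for the 50 members. Of the 24, 17 were lower in PD24 (7.96% of all genes), 7 in Nutlin (8.42%), 17 in N+PD30 against Nutlin (13.9%) and 16 in N+PD24 against Nutlin (5.63%). In PD24 against PD30, 2 of the 24 were called higher, where 4.07% of all genes were.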

How the data were processed

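RNA of 18 libraries of SJSA-1 cells (6 groups of 3 replicates) was sequenced, and the groups were taken from the sample titles. Per the submitters' processing notes and the study's methods, the authors mapped reads to hg19 with TopHat and Bowtie2 and counted them per gene with HTSeq 0.6.0. The deposited tables hold raw counts for 5 groups. For N+PD24 the deposited values are a signal, in which each library's counts had been divided by a single size factor, and 100% of them came out as whole reads within 0.01 read. In these and the other libraries 23368 gene rows were used, of which 28 carry symbols turned into dates by a spreadsheet (at most 0.29% of counts). The authors' own comparison of Nutlin with DMSO and the size-factor tables of groups held as counts were not used. Every CPM value was divided by the total of its library.

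Counts were compared with edgeR 4.0.16 (R 4.3.3), quasi-likelihood test, TMM normalization and edgeR's filter on low counts. Comparisons with N+PD24 used limma 3.58.1 with an intensity trend on log2(CPM + 0.5) after TMM scaling and the same filter, and such fold changes understate those of low genes. Each fit covered all genes that passed the filter in its groups, adjusted p-values (Benjamini-Hochberg) ran over all of them, and intervals are 1.96 standard errors to either side. Scripts were tested on simulated data. Class medians are log2 ratios of mean CPM + 0.5 over all members, filtered or not.

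The members, the classes, the second list and the comparisons were chosen with earlier results of these data known. The genes given in every library are MCM2 to MCM7, the 3 deepest falls and the smallest change of each class in PD30, and members called higher in any comparison. Other members are named with fold changes, and genes overlapping a member for that reason. Same-numbered replicates deviated together (correlations of deviations over 0.1 in all 3 pairs) in N+PD24 against Nutlin (0.62, 0.36 and 0.47), PD24 against PD30 (0.31, 0.55 and 0.29) and N+PD30 against PD30 (0.19, 0.32 and 0.65). The alternatives were DESeq2 1.42.0, size factors by relative log expression, total-count scaling, no filter, a pseudocount of 2, the adjusted p alone, a replicate block, other class membership, and leaving out each replicate. The removal interaction with its alternatives, edgeR on the recovered reads, the class medians of PD24 against PD30 and the 300-base promoter window were added after seeing the data. Gene positions are from GENCODE on GRCh37, the build of the counts, and upstream sequences from RefSeq on GRCh38.p14.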

Additional observations from a re-analysis of the deposited data

Results flagged for a closer look

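The change with Nutlin differed between cells with and without PD0332991 (30 h) in 13 members, by the interaction term over the DMSO, Nutlin, PD30 and N+PD30 libraries (edgeR, adjusted over all genes tested). All 13 values were above 0. Among licensing factors they were 1.53 ± 0.23 for ORC1, 1.402 ± 0.28 for CDC6, 1.97 ± 0.50 for CDT1 and 1.26 ± 0.16 for GMNN (standard errors). Among initiation factors they were 2.06 ± 0.28 for MCM10, 1.398 ± 0.22 for GINS3 and 1.10 ± 0.31 for PRIM1. Among elongation factors they were 1.31 ± 0.23 for POLD3, 1.43 ± 0.14 for PCNA and 1.10 ± 0.21 for LIG1. The remaining values were 1.78 ± 0.26 for CLSPN, 1.04 ± 0.17 for TIPIN and 3.40 ± 0.71 for FAM111B. In PCNA and LIG1 the Nutlin libraries in the presence of PD0332991 were above those without Nutlin, whereas in 10 others the log2 change with Nutlin was below 0 without PD0332991 and nearer to 0, or above it, in its presence. FAM111B was too low for its own fit between N+PD30 and PD30.

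The change on removal of PD0332991 differed between cells with and without Nutlin in 6 members (limma, Benjamini-Hochberg adjustment). It was below 0 for MCM3 (-1.08 ± 0.19, adjusted p = 0.0032), MCM4 (-1.03 ± 0.25, adjusted p = 0.014), MCM5 (-1.57 ± 0.38, adjusted p = 0.014), GINS3 (-1.19 ± 0.23, adjusted p = 0.0045) and POLD1 (-1.54 ± 0.44, adjusted p = 0.032), and above 0 for ORC4 (1.08 ± 0.24, adjusted p = 0.01). PD24 replicate 1, which had the highest level of its group for 36 of the 50 members, enters each of these values, and without it MCM3 was at -0.97, MCM4 at -0.85 and POLD1 at -1.49. The part of that library in the other values was not tested beyond leaving it out. With a pseudocount of 2, GINS3 was at -0.79 and lost its call. No group of 3 replicates was searched for single outlying samples.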

How the results depend on the processing

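The counts of lower members in PD30, PD24, N+PD30 and N+PD24 stayed within 1.5 times of the reported count under every alternative run, and leaving out replicates gave 43 to 43, 44 to 44, 42 to 43 and 41 to 43. The fold threshold mattered more. With the adjusted p alone, 39 members were lower and 2 higher in Nutlin, 22 were higher in PD24 against PD30, 5 were lower and 4 higher in N+PD24 against N+PD30, and 5 were lower in N+PD30 against PD30. The interaction with Nutlin was then above 0 for 26 and below 0 for 1, and the removal interaction below 0 for 13. No share of all genes is given for the adjusted p alone, so these counts cannot be set against all genes. A pseudocount of 2 left 1 member higher in N+PD24 against N+PD30. With it GINS3 lost its call in the removal interaction and ORC3 its call in N+PD24 against Nutlin (-0.95). DESeq2 called 1 Nutlin interaction below 0. With a replicate block, 8 members were higher in PD24 against PD30 and 2 removal interactions were above 0. Where same-numbered replicates did not deviate together in every pair, the block changed no count of calls by over 1.5 times. Leaving out single replicates gave 16 to 21 lower and 0 to 1 higher members in Nutlin, 5 to 13 higher in PD24 against PD30, 0 to 1 lower and 2 to 3 higher in N+PD30 against PD30, 11 to 14 interactions above and 0 to 1 below 0, and 2 to 7 removal interactions below and 0 to 2 above 0. Total-count scaling gave -2.62 for elongation in PD30 and -2.24 in N+PD24 against Nutlin, and it moved the fitted median of all genes by -0.10 in N+PD24 against N+PD30. With polymerase alpha and primase counted as elongation, initiation was at -3.80 in PD30, -3.61 and -3.15 in N+PD30 and N+PD24 against Nutlin and 0.67 in PD24 against PD30, and elongation at -1.76 in N+PD30. Leaving out replicates gave medians in PD30 of -3.36 to -3.13 for licensing, -3.31 to -3.20 for initiation and -2.78 to -2.67 for elongation, and in PD24 of -2.57 to -2.25, -3.21 to -2.89 and -2.43 to -2.30. In Nutlin they were -0.92 to -0.84, -0.69 to -0.55 and -0.84 to -0.74. Against Nutlin they were -2.66 to -2.49, -2.92 to -2.80 and -1.81 to -1.58 in N+PD30, and -2.46 to -2.35, -3.03 to -2.87 and -2.24 to -2.11 in N+PD24. In PD24 against PD30 they were 0.57 to 0.86, 0.22 to 0.50 and 0.17 to 0.29. Of single members, 4 changes that had not passed the test turned sign when single replicates were left out. They ranged from -0.026 (without PD30 replicate 1) to 0.21 for ORC4 in PD30, from -0.064 to 0.0058 (without Nutlin replicate 2) for GINS4 in Nutlin, and in PD24 against PD30 from -0.54 to 0.019 (without PD24 replicate 3) for CDC45 and from -0.049 (without PD24 replicate 1) to 0.32 for GINS4, with -0.021 without PD30 replicate 3. Members under about 1 CPM after PD0332991 are limited by depth, above all FAM111B and POLE2.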

Other observations

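MBD5, whose gene overlaps ORC4 on the opposite strand, was at 13.4, 14.2 and 12.3 CPM in DMSO, 37.5, 35.0 and 29.7 CPM in Nutlin and 4.37, 3.09 and 3.69 CPM in PD24. ORC4 was at 74.8, 78.9 and 95.03, 154, 148 and 140.1 and 113, 72.7 and 98.6 CPM in the same groups. Both genes were higher in Nutlin than in DMSO, and only MBD5 was lower in PD24. In N+PD24, where ORC4 was highest, MBD5 was at 10.7, 11.4 and 11.4 CPM, against 19.1, 22.0 and 22.3 CPM in N+PD30.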
